A study of Mus musculus with 2 samples.

Results

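The leukaemia-virus-like and GLN elements of the mouse genome are class I endogenous retroviruses (ERVs), the remains of gammaretroviruses that entered the germ line. Members were taken by name from a table of transposable element families, which gave 6 of its 634 families: MuLV-int, RLTR4_Mm, RLTR4_MM-int, RLTR1B-int, MMERGLN-int and MuRRS-int. All 6 are listed under the class ERV1 in the table, which holds 110 ERV1 families. No expression value entered the choice, although earlier results on these data were known when the list was drawn up.

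A gammaretroviral provirus carries the genes gag, pol and env in an internal part, flanked on both sides by a long terminal repeat (LTR) that holds the promoter and the polyadenylation signal. Repeat annotation names the internal part with the suffix "-int" and lists the LTR as a family of its own, which also collects solitary LTRs left behind when an internal part was lost by recombination. In embryonic stem (ES) cells such proviruses are known to be held silent by repressive chromatin at their LTRs and leader sequences. Daxx is a chaperone of the histone variant H3.3 and works with the chromatin remodeller Atrx in placing H3.3 at repeats.

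RNA-seq compared 2 cultures of B6/129 mouse ES cells of the genotype Daxx fl/fl; RosaCreERT, in which a Cre recombinase fused to an oestrogen receptor is made from the Rosa locus and removes the floxed Daxx gene once 4-hydroxytamoxifen (4-OHT) is added. The control culture received DMSO, and the Daxx-deleted culture received 4-OHT at 1 µM for 48 h and was then left for 3 days. Both cultures carried the floxed allele and the Cre gene, only 1 of them met 4-OHT, and both grew on mitomycin C inactivated feeder cells. Effects of 4-OHT or active Cre cannot be told apart from those of Daxx loss in this design.

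Each condition was 1 library, so the values below have no replicate error, no test was run, and every difference is one between these 2 libraries. Values are in RPKM, read numbers scaled by the length of the family and by the exonic reads of genes. How family length was set and how multi-mapped reads were shared out is not stated, so quotients of levels between families hold only as far as that counting treated them alike. The table holds families only: of 14 genes sought, among them Daxx, ES cell markers and fibroblast markers of feeder cells, 0 were listed, so neither the deletion nor the share of feeder RNA was checked. In bulk RNA, a change in the number of cells that use a provirus and a change in RNA per cell cannot be told apart.

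After Daxx deletion, 5 of the 6 families had higher values than in the control, and MMERGLN-int, the family that carries the GLN name, did not. This count is near the share over the whole table, where 78.9% of the families that passed the floor described further on were higher. By at least 1.5-fold higher were 4 families: RLTR4_MM-int, MuRRS-int, RLTR1B-int and MuLV-int. MuRRS-int passed that floor only through its value in the Daxx-deleted library. All 4 are internal parts, but so are 5 of the 6 families, and the list holds only 1 LTR. In the whole table, 15.1% of the families at that floor were at least 1.5-fold higher. The ratios of Daxx-deleted to control ran from 1.71 to 2.24 for these internal parts, and were 1.35 for the LTR RLTR4_Mm and 0.913 for the GLN internal part MMERGLN-int.

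MuLV-int is the internal part of murine leukaemia virus, the prototype of the gammaretroviruses, which endogenous copies can still produce in some mouse strains. It had 393 annotated copies and had 0.468 RPKM with Daxx present and 0.802 RPKM after its deletion. The ratio was 1.71 and the difference was 0.334 RPKM, the 7th largest gain among the 634 families.

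RLTR4_MM-int, a second leukaemia-virus-like internal part, had 496 copies and went from 0.149 RPKM (control) to 0.309 RPKM (Daxx-deleted), a ratio of 2.08. Its level was below that of MuLV-int in both libraries. MuLV-int stood 3.14 times as high in the control and 2.60 times as high in the Daxx-deleted library. The internal part with the lower level thus had the larger ratio, and the one with the higher level gained more RPKM, since the difference for RLTR4_MM-int was 0.160 RPKM.

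RLTR4_Mm is the LTR of the same group of proviruses, with 218 copies, the fewest of the 6. The control had 1.12 RPKM of it and the Daxx-deleted culture 1.52 RPKM, a ratio of 1.35. Its gain of 0.396 RPKM was the 5th largest of all families, but it did not reach 1.5-fold. Per kilobase, the LTR stood above both internal parts in both libraries, and the gap was narrower after Daxx deletion. RLTR4_MM-int was at 0.132 of the LTR level in the control and at 0.203 in the Daxx-deleted library, and MuLV-int was at 0.416 and 0.528 of it. Because multi-mapped reads were kept, these 3 families can hold some of the same reads and are not independent of each other.

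RLTR1B-int, an ERV1 internal part, had the highest level of the 6 families in both libraries. Which retrovirus the authors' annotation assigns it to is not stated. With 779 copies it measured 2.01 RPKM in DMSO and 3.56 RPKM after 4-OHT, a ratio of 1.77. It ranked 9th of 634 families in the control and 7th in the Daxx-deleted library. The difference of 1.55 RPKM was the 2nd largest gain in the table. RLTR1B, the LTR family paired with it here by name only, stood at 0.171 RPKM and 0.189 RPKM, a ratio of 1.11, over 1555 copies. The internal part therefore stood 11.8 times as high as RLTR1B in the control and 18.8 times as high in the Daxx-deleted library, the reverse of the order seen for the RLTR4 pair.

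MMERGLN-int is the internal part of GLN, a gammaretrovirus-like family named after a primer binding site that matches glutamine tRNA. With 657 copies it measured 1.05 RPKM in DMSO and 0.955 RPKM after 4-OHT. The ratio of 0.913 and the difference of -0.0906 RPKM made it the 1 family of the 6 with a lower value. RLTR1B-int was 1.92 times as high as MMERGLN-int in the control and 3.73 times as high in the Daxx-deleted library, so the gap between them was wider after Daxx deletion. No LTR in the table has GLN in its name.

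MuRRS-int is the internal part of the murine retrovirus-related sequences, a defective group related to leukaemia viruses. It had 411 copies and was close to the bottom of the range, with 0.00628 RPKM (control) and 0.0141 RPKM (Daxx-deleted). The ratio of 2.24 was the highest of the 6 families, on a difference of 0.00780 RPKM. Its level was far below that of the others: RLTR1B-int stood 320 times as high in the control and 253 times as high in the Daxx-deleted library. MuRRS4-int, a related internal part with 1814 copies, went from 0.0309 to 0.0469 RPKM, which gives a ratio of 1.52.

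**Figure D1:**
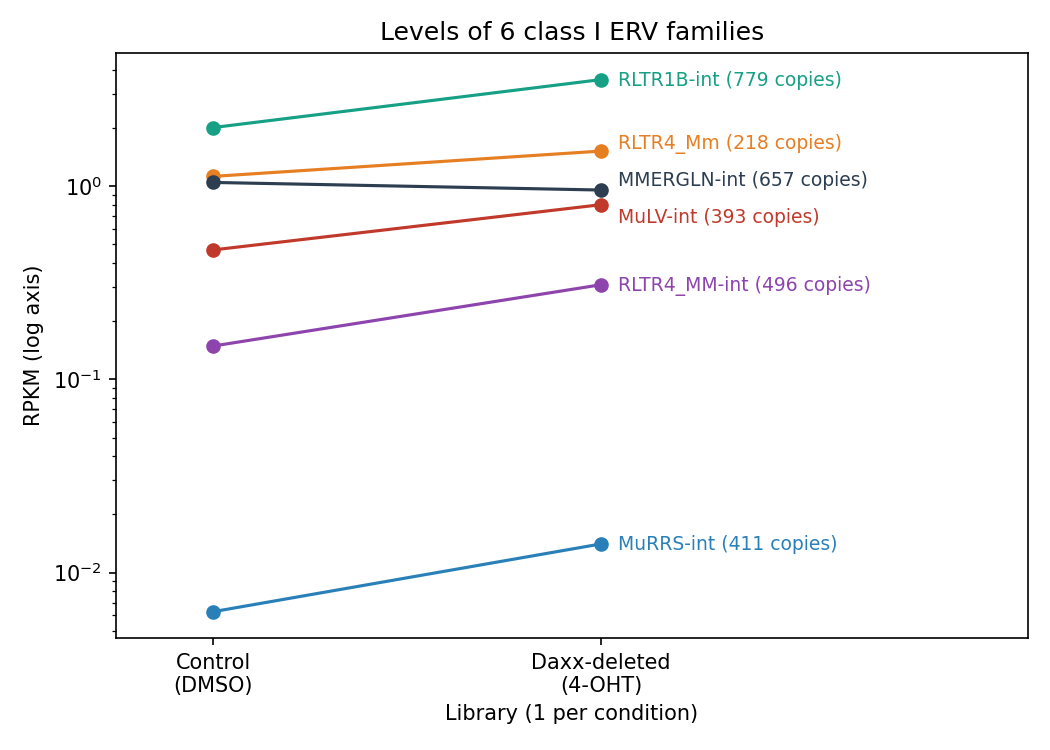
RPKM (log axis) of the 6 families in the control and Daxx-deleted libraries, 1 library per condition, with the number of annotated copies beside each name. Lines join the 2 values of a family. All lines but that of MMERGLN-int slope upward, and RLTR1B-int, at 2.01 and 3.56 RPKM, lies above the other 5 in both libraries.

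The order of levels was the same in both libraries. From high to low it ran RLTR1B-int, RLTR4_Mm, MMERGLN-int, MuLV-int, RLTR4_MM-int and MuRRS-int. RLTR4_Mm and MMERGLN-int were neighbours at 1.12 and 1.05 RPKM in the control, and MMERGLN-int and MuLV-int were neighbours at 0.955 and 0.802 RPKM in the Daxx-deleted library. Without replicates it is unknown whether such neighbours differ beyond the spread between cultures. Of the 6 families, 3 were among the 20 highest of the table in the control and 4 in the Daxx-deleted library, where MuLV-int joined them at rank 16.

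To place these ratios among all families, log2 changes were computed with a pseudocount of 0.001 RPKM over the 436 families that averaged 0.01 RPKM or more and had 100 copies or more (the floor). All 6 families passed, MuRRS-int narrowly with a mean of 0.0102 RPKM. Of the 436 families, 15.1% were higher by at least 1.5-fold, beside 4 of the 6, and 5.28% by at least 2-fold, beside 2 of the 6. MuRRS-int passed the floor only through its value in the Daxx-deleted library, so its counts support nothing. Without it, a comparison added after seeing the data, the counts were 3 of 5 and 1 of 5. A lower value by at least 1.5-fold was seen in 1.38% of the families and by at least 2-fold in 0.459%, and in 0 of the 6. The median log2 change of the 6 families was 0.80, and 0.78 without MuRRS-int, beside 0.18 for all 436.

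Higher values were common, since 78.9% of the 436 were higher after Daxx deletion, and the 5 of the 6 are near that share. The quartiles of the 436 log2 changes were 0.05 and 0.40. Their median differed by level, at 0.09 for families averaging at least 0.1 RPKM and -0.12 at 0.5 RPKM. The 0.18 is thus not matched to the level of most of the 6. Relative to the median family, the log2 change was 0.87 for RLTR4_MM-int, 0.87 for MuRRS-int, 0.65 for RLTR1B-int, 0.60 for MuLV-int, 0.26 for RLTR4_Mm and -0.31 for MMERGLN-int. On that scale 9.4% of all families were at least 1.5-fold higher, beside 4 of the 6, or 3 of 5 without MuRRS-int. MuLV-int passed by a small margin, 1.5-fold being 0.58 on the log2 scale, and 0 of the 6 reached 2-fold, which 3.21% of all families did.

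**Figure D2:**
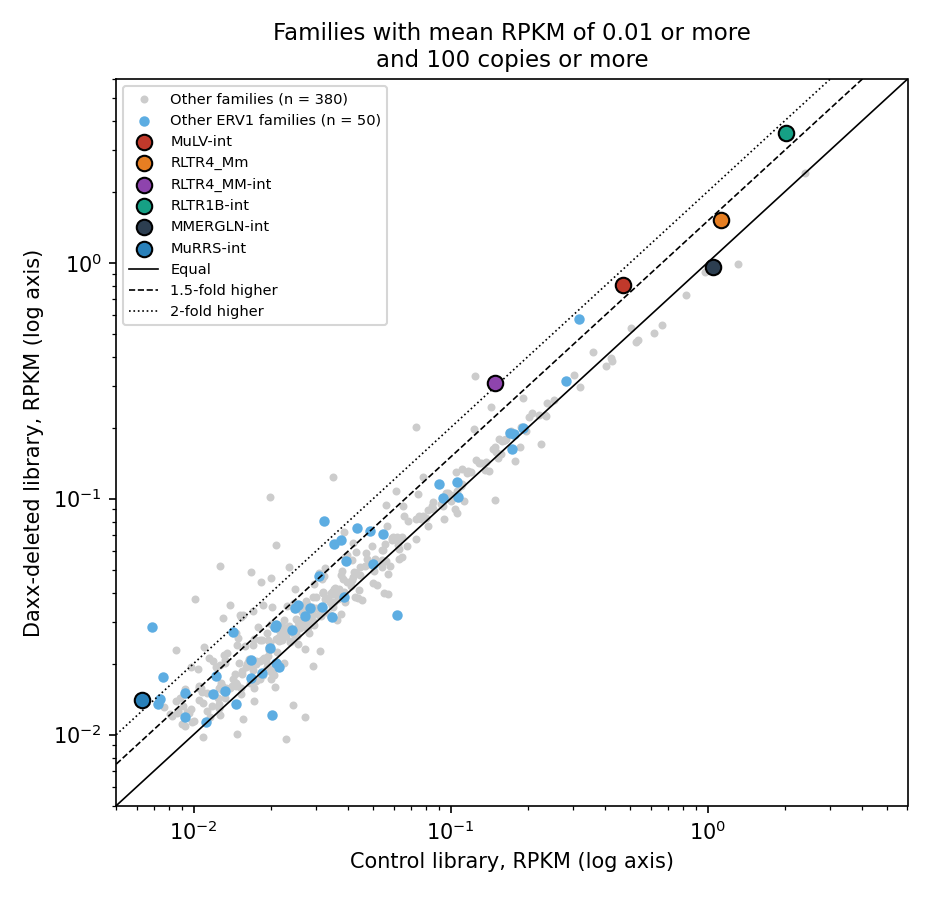
RPKM in the Daxx-deleted library against RPKM in the control (both axes log) for the 436 families at the floor, with the 6 families as large points, the 50 other ERV1 families in blue and all others in grey. The lines mark equality, 1.5-fold and 2-fold. RLTR1B-int, MuLV-int and RLTR4_MM-int lie above the 1.5-fold line at levels where most grey points lie close to equality, and MMERGLN-int lies among those points.

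Few families of the table had levels as high as most of the 6. Only 81 families reached a mean of 0.1 RPKM with at least 100 copies, and 5 of the 6 families were among them. This level was chosen after the values were seen. Of the 81, 11.1% (9 families) were at least 1.5-fold higher, and 3 of those 9 were RLTR4_MM-int, RLTR1B-int and MuLV-int. The other 6 were the IAP families IAPEz-int and IAPLTR1_Mm, the class I LTR LTRIS2, the class II families RMER16-int and RMER17D, and the old LINE family CR1_Mam. IAPEz-int and RMER17D, at 0.0736 and 0.0778 RPKM in the control, reached this level only through the Daxx-deleted library. Their places among the 9 therefore support nothing, and the 11.1% includes them. At a mean of at least 0.5 RPKM 12 families remained. Of these, 5 were higher after Daxx deletion, and RLTR1B-int, MuLV-int and RLTR4_Mm were 3 of the 5, the other 2 being MMETn-int and RLTRETN_Mm at ratios of 1.00 and 1.05. MuLV-int, at 0.468 RPKM in the control, reached this level only through the Daxx-deleted library, so its place among the 5 supports nothing. MMERGLN-int was among the 7 with a lower value, and the median log2 change of the 12 was -0.12.

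For each of the 6, the family outside the list with the nearest pair of levels was sought, by Euclidean distance between log2 values over the 2 libraries. MuRRS-int had RodERV21-int, another ERV1 internal part, at a distance of 0.04, with 0.00646 and 0.0142 RPKM. RLTR4_MM-int had IAPLTR1_Mm, an LTR of the intracisternal A-particle, at a distance of 0.27, with 0.125 and 0.330 RPKM. MMERGLN-int had MamSINE1, a tRNA-derived SINE, at a distance of 0.12, with 0.980 and 0.911 RPKM.

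The remaining 3 families had no close neighbour among the families at the floor, and families with fewer copies were not searched. For MuLV-int the nearest was RLTRETN_Mm, at 0.502 and 0.528 RPKM and a distance of 0.61. For RLTR4_Mm it was RLTR19-int, at 1.32 and 0.988 RPKM and a distance of 0.66. For RLTR1B-int it was MMETn-int, at 2.39 and 2.40 RPKM and a distance of 0.62. In each of these 3 cases the nearest family had the higher control level and the lower level after Daxx deletion.

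Related families were taken from a list of names, which found 24 families. Some share an element name with the 6, such as RLTR1B and MuRRS4-int. Others, such as the RLTR14, MURVY and VL30 families, do not, so values over the list are not those of the same elements alone. The list pattern also took in RLTR3_Mm, which the table classes as ERVK and lists at 0 in both libraries. Of the 24, 22 passed the floor and 17 of these were higher after Daxx deletion, a count near the 78.9% of all 436 families. A difference of 1.5-fold was reached by 6 in the upward direction, beside 15.1% of all 436, and by 0 in the downward direction, beside 1.38%. None was 2-fold higher, beside 5.28%. The 6 include RLTR1C, which passed the floor only through the Daxx-deleted library. The median of their log2 changes was 0.28, beside 0.80 for the 6 families and 0.18 for all 436.

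LTRIS LTRs, which are related to the LTRs of MuRRS, split into 2 sets of 3, of which 1 set reached 1.5-fold, beside 15.1% of all families at the floor. LTRIS2, the related family with the highest level, stood at 0.315 and 0.575 RPKM over 1424 copies, a ratio of 1.82. LTRIS3 and LTRIS4, named after their values were seen, had ratios of 1.79 and 1.82 at lower levels, with 0.0671 and 0.0642 RPKM in the Daxx-deleted library. LTRIS5, LTRIS_Mm and LTRIS_Mus, of which the first 2 were also named after their values were seen, did not reach 1.5-fold. LTRIS_Mus stood at 0.107 and 0.101 RPKM.

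VL30 elements, retrovirus-like sequences whose RNA is packaged by leukaemia virus particles, were named after their values were seen. All 3 of their families had a higher value, as did 78.9% of all families at the floor, and 1 reached 1.5-fold, beside 15.1%. MMVL30-int went from 0.0431 to 0.0753 RPKM, which is a ratio of 1.75. RLTR6_Mm, the VL30 LTR, went from 0.0486 to 0.0727 RPKM and fell just short of 1.5-fold, with a log2 change of 0.57. RLTR6-int had a ratio of 1.39.

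The 4 RLTR1 LTRs all had higher values after Daxx deletion, as did 78.9% of all families at the floor. RLTR1 stood at 0.106 and 0.118 RPKM, a ratio of 1.12, beside the 1.11 of RLTR1B. RLTR1C and RLTR1D, named after their values were seen, had ratios of 1.85 and 1.40 at lower levels, with 0.00730 and 0.0135 RPKM for RLTR1C and 0.0209 and 0.0292 RPKM for RLTR1D. RLTR1C passed the floor only through its value in the Daxx-deleted library, so its ratio supports nothing. The families RLTR14, RLTR14-int, RLTR23, RLTR24, RLTR30 and RLTR41 were put together after their values were seen. Of these 6, 2 had a higher value, beside 78.9% of all families at the floor. At 1.5-fold there were 0, a count near the 15.1% of all families, and their median log2 change was -0.01. MURVY-int, an internal part of a Y-chromosomal retrovirus-like repeat, lay below the floor with 0.00260 and 0.00855 RPKM, and it is named here for its low level, known from its values.

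**Figure D3:**
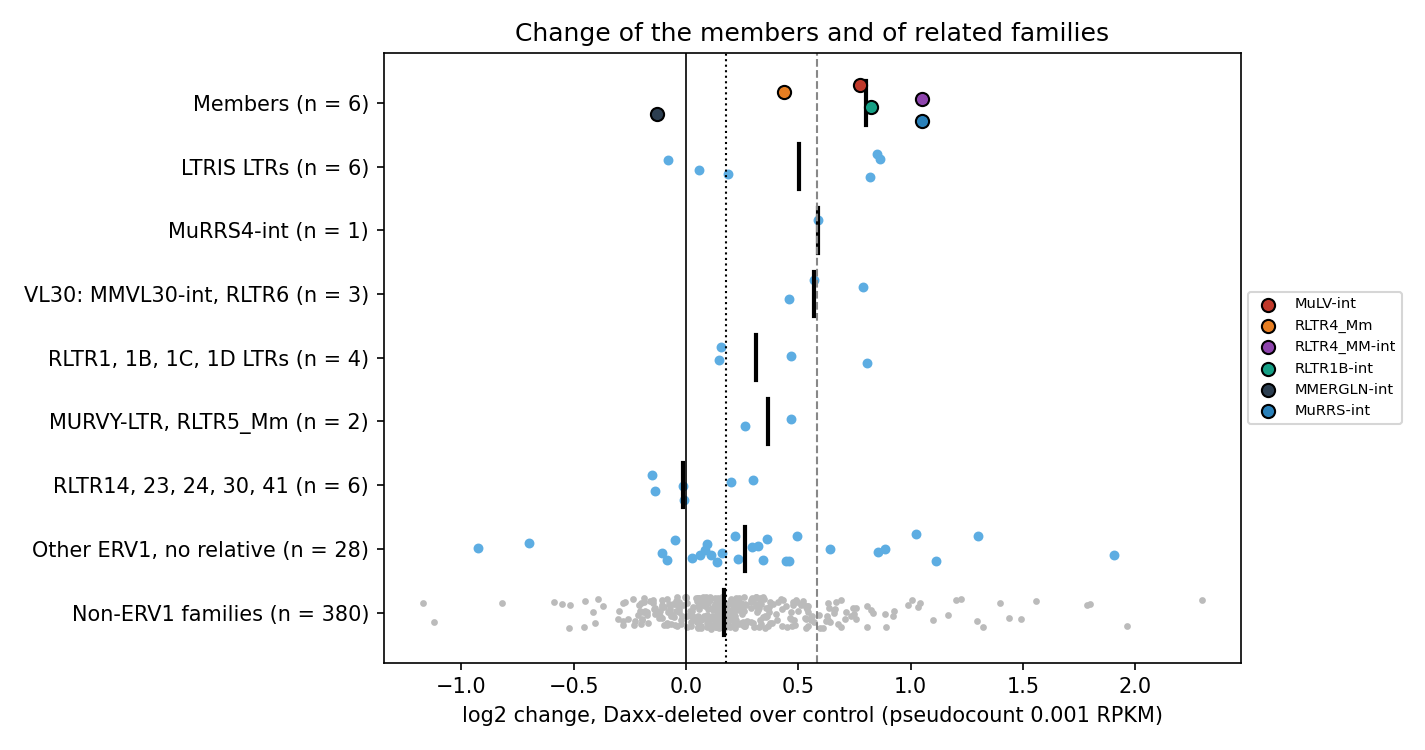
log2 change (Daxx-deleted over control, pseudocount 0.001 RPKM) of each family at the floor, by group, with the group median as a thick bar. The solid line marks 0, the dotted line the median family at 0.18 and the dashed line 1.5-fold. The 6 families have a median of 0.80, and the RLTR14 to RLTR41 set has a median of -0.01.

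At the floor, the other ERV1 families reached 1.5-fold more often than all families, a difference that was not tested and was not seen at higher levels. At a mean of at least 0.1 RPKM, 14 ERV1 families remained, 5 of the 6 among them. Of the 14, 4 were at least 1.5-fold higher: 3 of the 6 and LTRIS2. The median log2 change of the other ERV1 families at that level was 0.15, beside 0.09 for all 81 families. At the floor, 50 of the 104 remained. Of these 50, 40 had a higher value, a count near the 78.9% of all 436 families. At least 1.5-fold higher were 13 (26%), beside 15.1% of all 436, and 4 were at least 2-fold higher, beside 5.28%. Among the 13, at least RLTR1C and RodERV21-int passed the floor only through the Daxx-deleted library, and RodERV21-int is also among the 4. Relative to the median family the share at 1.5-fold was 22%, beside 9.4%. The median of their log2 changes was 0.28, and 0.10 when counted from the median family. The 8 internal parts among the 50 had a median of 0.54, with 4 at least 1.5-fold higher. RodERV21-int had the largest change of the 8, at 1.02. The 42 LTRs and other parts had a median of 0.21, with 9 at least 1.5-fold higher, RLTR1C among them. Both counts thus include a family that entered only through the Daxx-deleted library, and they were not compared by a test. By size of log2 change, MuRRS-int ranked 4th, RLTR4_MM-int 5th, RLTR1B-int 11th, MuLV-int 15th, RLTR4_Mm 25th and MMERGLN-int 52nd of the 56 ERV1 families at the floor.

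Of 4 internal parts of other ERVs chosen for comparison, 3 had larger ratios at lower levels and MMETn-int, at 2.39 and 2.40 RPKM, had a ratio of 1.00. MERVL-int had a ratio of 5.11, MMERVK10C-int of 3.54 and IAPEz-int of 2.74, beside 1.77 for RLTR1B-int. In the Daxx-deleted library these 3 stood at 0.101, 0.123 and 0.201 RPKM, all below the 0.802 RPKM of MuLV-int and the 3.56 RPKM of RLTR1B-int. Ordered by gain in RPKM over all 634 families, RLTR1B-int, RLTR4_Mm, MuLV-int and RLTR4_MM-int took ranks 2, 5, 7 and 11, and IAPEz-int took rank 13, MMERVK10C-int rank 18 and MERVL-int rank 19.

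A pseudocount added to both values cannot change the direction of a log2 change, so only the size of the 6 changes could differ. The rescalings subtracted 0.12 to 0.18, less than the smallest positive change, that of RLTR4_Mm, and MMERGLN-int was already below 0. No direction could therefore change under them either. The values of RLTR1B-int ran from 0.65 to 0.82, of MuLV-int from 0.60 to 0.78, of RLTR4_MM-int from 0.72 to 1.05, of RLTR4_Mm from 0.26 to 0.44 and of MMERGLN-int from -0.31 to -0.12. MuRRS-int ran from 0.10 to 1.16. Its control value lies below the pseudocount of 0.01 RPKM, and both of its values lie below that of 0.1 RPKM. With 0.01 RPKM it no longer reached 1.5-fold, at 0.56.

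**Figure D4:**
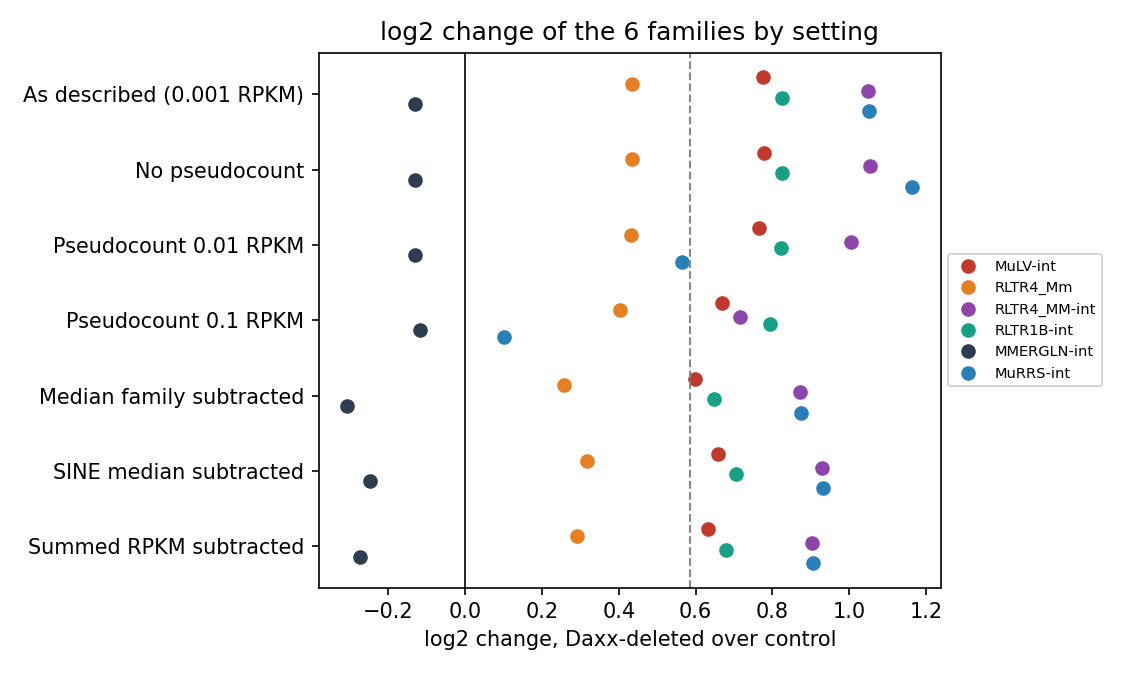
log2 change (Daxx-deleted over control) of the 6 families under 7 settings: 4 pseudocount choices and 3 rescalings. The solid line marks 0 and the dashed line 1.5-fold. RLTR1B-int, MuLV-int and RLTR4_MM-int lie to the right of the dashed line in every row, RLTR4_Mm between the lines and MMERGLN-int left of 0, and MuRRS-int moves from 1.16 with no pseudocount to 0.10 with 0.1 RPKM.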

How the data were processed

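Per the labels' protocols, total RNA was made into TruSeq libraries. Per the info sheet deposited with the table, the authors aligned reads to mm9 with JAGuaR 2.1, which uses BWA and junctions of Ensembl 67, and BWA 0.7.10 is named in the submitters' processing notes. The deposited RPKM values are scaled, per the info sheet, by exonic reads of protein-coding genes, with mitochondrial genes, ribosomal protein genes and the 0.5% most expressed exons left out. Multi-mapped reads were retained, and 1 read may therefore count for several related families. The sources used here do not say how such reads were shared out or how family length was set. The deposited count of elements per family gives annotated copies, not reads. Depth is unknown, so no interval or detection limit is given.

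The columns were matched to samples by treatment, and 0 columns belonged to other samples. The 6 families, the list of relatives, the pseudocount of 0.001 RPKM, the floor (mean of 0.01 RPKM, 100 copies) and the 1.5-fold threshold were chosen with earlier results of these data known. The log2 change was taken after adding the pseudocount to both values, Daxx-deleted over control, and ratios are quotients of deposited values. Named families are the 6, relatives that share an element name with them or have the 3 highest levels among the rest, the nearest family in level, and internal parts of 4 other ERVs. Others are marked or were singled out by a stated level. The log2 formula, without a pseudocount, was run on control values multiplied by known folds without noise, which checks only its arithmetic. Alternatives were other pseudocounts, floors, thresholds and rescalings. Values were computed with pandas 2.3.3 and numpy 2.4.6 under Python 3.11.15 and drawn with matplotlib 3.10.9.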

Additional observations from a re-analysis of the deposited data

How the results depend on the processing

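With single libraries, a shift of more than 0.58 (1.5-fold) in a log2 change, or of more than 1.5 times in a count, is taken as a move. Of 36 alternative log2 changes of the 6 families, 35 stayed within that limit, and MuRRS-int fell to 0.10 with a pseudocount of 0.1 RPKM, which is larger than its level. RLTR4_Mm and MMERGLN-int could not have moved by falling to 0, and the rescalings, of 0.12 to 0.18, were too small to move any of the 6. The count of 4 families at least 1.5-fold higher became 2 at 2-fold, 0 at 3-fold and 2 at a floor of 0.5 RPKM, where 4 of the 6 families remained. MuLV-int reached the floor of 0.5 RPKM only through its value in the Daxx-deleted library. The count over all families, 66, became 23 at 2-fold, 5 at 3-fold, 120 with no floor, 18 at a floor of 0.05 RPKM, 9 at 0.1 RPKM (added after seeing the data), 2 at 0.5 RPKM, 31 with at least 1000 copies, 41 after subtraction of the median family, and 37 and 8 with pseudocounts of 0.01 and 0.1 RPKM. The median of the 6 families ran as low as 0.54, with a pseudocount of 0.1 RPKM. None of the 6 families has 1000 copies, so their count and median were not run at that minimum. No paired analysis was possible because there is 1 library per group. Depth is unknown, which limits the low values most.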
